A study of Mus musculus with 22 samples.

Results

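Anti-IL5 stage III eosinophils, late precursors from the marrow of mice treated with an antibody that neutralises interleukin-5 (IL-5), were set against stage IV eosinophils, the last of the sorted maturation stages, from mice given the isotype control antibody. The comparison asked what still separates the precursors from the end point of maturation. Libraries were chosen by their titles alone and by no measured value, and the comparison takes 3 libraries of each group, 6 of the 22 in the series. Both groups came from wild-type C57BL/6 mice that received 400 ng recombinant murine IL-33 intraperitoneally every day for 7 days. Both also received 400 µg of antibody on 3 days from the last IL-33 injection on, which was anti-IL5 for the stage III group and its isotype control for the stage IV group. The series has no mice without IL-33, and the number of animals behind a library is not given in the sources used here, and p-values therefore rest on the spread between these libraries, which may be technical. Stage and antibody both differ between the groups and cannot be told apart in this contrast, so isotype stage III and anti-IL5 stage IV, with 3 libraries each, are given beside it.

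Eosinophils are granulocytes that mature in the bone marrow from dividing precursors. Precursors copy their genome, synthesise large amounts of the cationic proteins that fill the secondary granules, and load these granules through the endoplasmic reticulum and Golgi. They then leave the cell cycle, shut down granule gene transcription and gain surface receptors such as the eotaxin receptor. IL-5 acts through a receptor made of Il5ra and the shared beta chain Csf2rb, which activates the kinase JAK2 and the transcription factor STAT5. Targets of STAT5 include feedback inhibitors of the SOCS family, PIM kinases and survival genes of the BCL2 family.

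The 6 libraries held 11003318 to 14781250 counts assigned to genes, with 12597 to 12793 genes seen in each. At this depth 3 counts in a library equal 0.227 to 0.294 CPM (counts scaled to a common library size). The 10 most abundant genes took 4.195% to 5.617% of the counts. The eosinophil markers Epx, Prg2, Ccr3, Il5ra and Siglecf were present in all 6 libraries, the lowest values being 208 CPM for Epx, 1200 CPM for Prg2, 438 CPM for Ccr3, 278 CPM for Il5ra and 517 CPM for Siglecf. Marrow cells positive for Ly6G, CD90.2, NK1.1 or CD45R had been depleted, and sorting reached a purity of at least 95%. Gates used CD200R3, CD117, CD55, PIR-A/B, F4/80, CD29 and Siglec-F, so differences in the genes of these proteins are no findings here. Of 9 tested genes of gated proteins, 1 was called higher and 5 lower in anti-IL5 stage III.

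Levels were computed as CPM from the deposited counts, and every difference is between groups for the same gene, as a log2 difference ± its standard error (SE) from edgeR. A gene was called when its Benjamini-Hochberg adjusted p over all 12387 tested genes was under 0.05. Anti-IL5 stage III differed from isotype stage IV in 3134 genes, which is 25.3% of those tested. Of these, 1657 (13.4%) were higher and 1477 (11.9%) were lower in anti-IL5 stage III. The differences above 4-fold were mostly on the higher side, with 612 genes higher and 277 lower. All 3 precursor libraries lay above all 3 stage IV libraries for 2622 genes (21.2%) and below them for 2780 (22.4%).

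The distance to the same end point was longer for isotype precursors. Isotype stage III differed from isotype stage IV in 4165 genes, 33.6% of those tested, and the median absolute log2 difference over all tested genes was 0.52, against 0.44 for anti-IL5 stage III. These contrasts share the isotype stage IV libraries, and the test of the difference between them is anti-IL5 against isotype at stage III, which called 163 genes higher and 626 lower, 6.37% of those tested. Anti-IL5 stage III differed from anti-IL5 stage IV in 2951 genes (23.8%), and the antibodies differed at stage IV in 130 genes (1.05%), 23 higher and 107 lower.

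On the principal components of all 22 libraries, the first component carried 62.3% of the variance. Anti-IL5 stage III libraries lay at 44.5, 55.4 and 66.2 on it, isotype stage III libraries at 20.4, 27.7 and 2.6, and isotype stage IV libraries at 113.7, 114.6 and 116.5. The anti-IL5 precursors therefore stood between the isotype stages on this axis, with no overlap with either. On the second component, with 10.8% of the variance, they stood at 55.3, 50.5 and 47.1, above isotype stage III at 44.2, 45.2 and 39.5, while isotype stage IV lay at -33.8, -37.4 and -42.1. Along this second axis the anti-IL5 precursors were the farther of the 2 stage III groups from isotype stage IV.

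**Figure D1:**
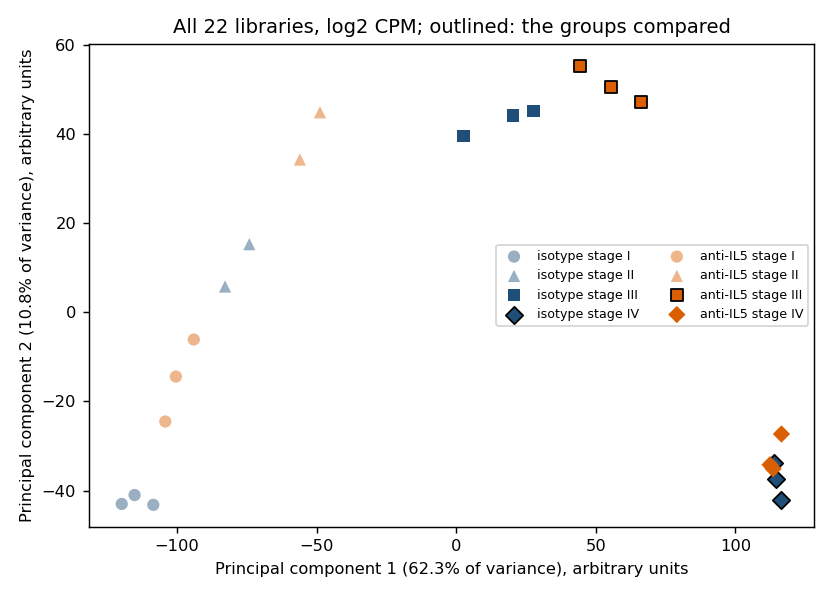
Principal components 1 and 2 of log2 CPM in arbitrary units, 1 point per library, orange for anti-IL5 and blue for isotype, with the shape giving the stage and a black outline marking the 2 groups compared. Anti-IL5 stage III lies between 44.5 and 66.2 on the first component, short of isotype stage IV at 113.7 to 116.5, and on the far side of the second component.

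The 10 largest rises in anti-IL5 stage III included Il17rb, Qrfpr, Serpinb10 and 3 mitotic genes. Il17rb, a subunit of the receptor for IL-25, read 70.1, 33.6 and 59.8 CPM in anti-IL5 stage III and 0.596, 0.227 and 0.749 CPM in isotype stage IV. The groups lay far apart, with a log2 difference of 6.71 ± 0.43 (SE, edgeR adjusted p = 3.3e-10). Isotype stage III libraries, at 79.9, 40.7 and 54.9 CPM, overlapped the anti-IL5 precursors. Qrfpr, a receptor for the neuropeptide 26RFa, held 378 counts over the anti-IL5 stage III libraries and 1 count over the isotype stage IV libraries, a ratio of 423 with a 95% counting interval of 75.5 to 16800. Ifitm6, of the interferon-induced transmembrane family, read 407, 344 and 364 CPM against 6.81, 5.15 and 3.28 CPM, a log2 difference of 6.18 ± 0.37 (edgeR adjusted p = 1.04e-10). Other genes among the 10 largest rises were the mitotic genes Nek2, Kif4 and Cenpf, with log2 differences of 6.37, 6.29 and 6.21. Itgb2l, an integrin beta subunit of granulocytes, Chdh, choline dehydrogenase, and Sema4f, a semaphorin, rose by 5.84, 5.82 and 5.7.

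Several of the largest falls were in genes that also read low in isotype stage III. Fgfr1, a receptor tyrosine kinase for fibroblast growth factors, read 0, 0.865 and 2.85 CPM in anti-IL5 stage III and 453, 363 and 389 CPM in isotype stage IV. Its log2 difference was -8.29 ± 0.62 (edgeR adjusted p = 3.15e-08), and isotype stage III, at 0.255, 1.49 and 2.05 CPM, lay in the range of the anti-IL5 precursors. Ccl9, a chemokine ligand of CCR1, read 5, 12.2 and 14.1 CPM against 977, 963 and 1490 CPM, a log2 difference of -6.77 ± 0.53 (edgeR adjusted p = 2.07e-08). Gpr35, a G protein-coupled receptor, read 0.392, 0.192 and 0.356 CPM in the anti-IL5 precursors and 13, 23.8 and 25.1 CPM in isotype stage IV, with no overlap. Bmp7, a growth factor of the TGF-beta superfamily, showed the same order, at 0, 0.288 and 0.0891 CPM against 16.8, 17.1 and 28.4 CPM. Rhbdl3, of the rhomboid protease family, and Neb, nebulin, fell by 6.13 and 6.06 on the log2 scale. Retnla, a secreted resistin-like protein, ranged widely among the precursors, at 1.37, 14.6 and 23.2 CPM, yet all lay under the stage IV libraries at 267, 321 and 282 CPM (log2 difference -4.47 ± 0.85, edgeR adjusted p = 0.00119).

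**Figure D2:**
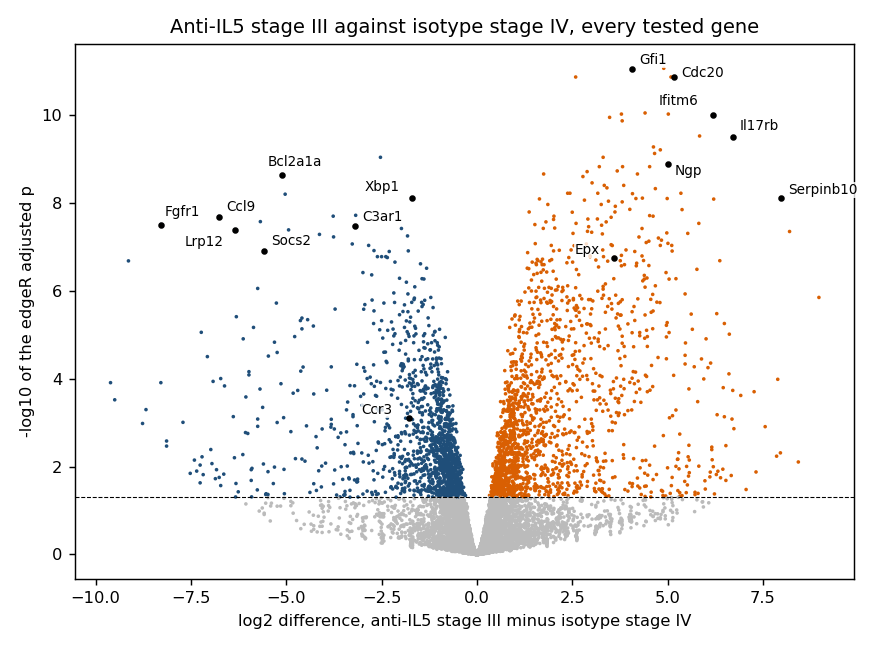
Each point is 1 of the 12387 tested genes, with the log2 difference between anti-IL5 stage III and isotype stage IV on the x axis and the negative log10 of the edgeR adjusted p on the y axis. The 1657 genes called higher in anti-IL5 stage III are orange, the 1477 called lower are blue, and the dashed line is the threshold of 0.05.

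Markers of other cells differed from list to list, beside 13.4% higher and 11.9% lower over all tested genes. Of 16 tested mature neutrophil markers, 11 rose and 0 fell in anti-IL5 stage III, with a summed level of 10400 to 13800 CPM against 4910 to 5960 CPM in isotype stage IV, 6740 to 10700 CPM in isotype stage III and 7540 to 8650 CPM in anti-IL5 stage IV. Ngp, a neutrophil granule protein, made up much of this sum, at 5870, 5510 and 5470 CPM against 154, 178 and 193 CPM (log2 difference 5 ± 0.35, edgeR adjusted p = 1.33e-09), and isotype stage III read 4740, 6620 and 4220 CPM. S100a9, a calgranulin subunit, read 723, 668 and 934 CPM against 37.2, 45.5 and 61.3 CPM (log2 difference 4.01 ± 0.33, edgeR adjusted p = 1.42e-08). The libraries of anti-IL5 stage III differed among themselves in some of these genes, as for Mmp8, neutrophil collagenase, at 14.1, 73.1 and 150 CPM, and Cd177, a neutrophil surface protein, at 69, 106 and 198 CPM. Of 5 tested primary granule markers of neutrophil precursors, 0 rose and 0 fell, with sums of 51.5 to 93.4 CPM against 41.5 to 107 CPM. Of 10 tested basophil and mast cell markers, 3 rose and 2 fell, and the rises included Kit, whose protein CD117 was used in the gates. Their sums were 712 to 847 CPM against at most 319 CPM in isotype stage IV and 1400 to 2260 CPM in isotype stage III. Hdc made up much of the anti-IL5 stage III sum, at 575, 493 and 532 CPM against 112, 95.7 and 99.9 CPM in isotype stage IV. Fcer1a also rose, Ms4a2 and Cyp11a1 fell, and Cpa3 and Mcpt8 were not called. Gzmb, Tpsab1, Tpsb2, Cma1 and Mcpt4 were at 0 in all 6 libraries. Of 16 tested monocyte and macrophage markers, 2 rose and 1 fell, with sums of 2090 to 2240 CPM against 1300 to 2410 CPM. Dendritic cell and erythroid markers had 0 calls among 10 and 8 tested, and the haemoglobin genes Hba-a1, Hba-a2, Hbb-bs and Hbb-bt were at 0 in all 6 libraries. The part of other cells in the results was not tested, and fewer cells of a type cannot be told apart from less RNA per cell in these bulk samples.

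Genes of cell division were higher in anti-IL5 stage III than in isotype stage IV. Over all tested genes 13.4% were higher and 11.9% lower. Of 66 tested genes of G2/M phase and mitosis, 62 rose and 1 fell, with a median log2 difference of 3.77, where the median over all tested genes was 0. Of 55 tested genes of S phase and DNA replication, 39 rose and 1, the DNA polymerase delta subunit Pold3, fell, with a median of 1.97. Of 26 replication-dependent histone genes, 17 rose and 0 fell, with a median of 1.29.

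Cdc20, the activator of the anaphase-promoting complex, read 89.8, 107 and 75.2 CPM in anti-IL5 stage III and 2.21, 2.2 and 3.18 CPM in isotype stage IV. The log2 difference was 5.17 ± 0.27 (edgeR adjusted p = 1.39e-11). Isotype stage III read 105, 95 and 151 CPM, overlapping the anti-IL5 precursors, and Cdc20 was not called between the stage III groups (log2 difference -0.37 ± 0.21, edgeR adjusted p = 0.312). Spc24, a kinetochore subunit, rose by a log2 difference of 5.09 ± 0.26 (edgeR adjusted p = 1.39e-11), from 0.51, 0.758 and 0.749 CPM to 24.2, 25.4 and 20.3 CPM. Spc24 was also lower in anti-IL5 than in isotype stage III, where it read 45.8, 40.8 and 66.5 CPM (log2 difference -1.13 ± 0.18, edgeR adjusted p = 0.000808). Mki67, which encodes the proliferation antigen Ki-67, read 73.7, 71.4 and 35.2 CPM against 13.4, 6.29 and 14.5 CPM in isotype stage IV (log2 difference 2.4 ± 0.34, edgeR adjusted p = 1.36e-05). The exception in the G2/M list was Pttg1, securin, which fell from 79.3, 77.7 and 87.1 CPM to 48.3, 47.3 and 42.4 CPM.

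Many S phase genes lay between the isotype stages. The test between the stage III groups called 31 of the 55 S phase genes and 11 of the 66 G2/M genes lower under anti-IL5, and 0 of either list higher. That test called 6.37% of all tested genes, 163 higher and 626 lower. Mcm5, a subunit of the replicative helicase, read 60.4, 64.2 and 36.4 CPM in anti-IL5 stage III, 123, 123 and 124 CPM in isotype stage III and 9.87, 6.36 and 6.56 CPM in isotype stage IV. The anti-IL5 precursors thus stood apart from both isotype stages, with log2 differences of 2.82 ± 0.23 from stage IV (edgeR adjusted p = 8.77e-09) and -1.2 ± 0.21 from stage III (edgeR adjusted p = 0.0012). Rrm2, the small subunit of ribonucleotide reductase, read 106, 122 and 97 CPM, under the 238, 207 and 353 CPM of isotype stage III and over the 12.9, 5.99 and 6.46 CPM of isotype stage IV. Tyms, thymidylate synthase, held the same order at 22.2, 24.2 and 23.8 CPM, between 41.2, 60.1 and 62.4 CPM and 2.47, 2.73 and 2.34 CPM.

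The promoter of Uhrf1, a reader of hemimethylated DNA at replication forks, is shown because it was the S phase member with the largest difference that holds an exact E2F letter match. E2F factors are the textbook activators of S phase genes. RefSeq gives Uhrf1 windows at 2 starts, and only the downstream one, inside the annotated gene (chromosome 17, 56303321 to 56323486), holds the match; the other window (56303087 to 56303386) holds 0. The 250 bases before the downstream start (GRCm38.p6, RefSeq, chr17:56304063-56304312, plus strand) are printed 5′ to 3′ with the match in capitals.
Uhrf1: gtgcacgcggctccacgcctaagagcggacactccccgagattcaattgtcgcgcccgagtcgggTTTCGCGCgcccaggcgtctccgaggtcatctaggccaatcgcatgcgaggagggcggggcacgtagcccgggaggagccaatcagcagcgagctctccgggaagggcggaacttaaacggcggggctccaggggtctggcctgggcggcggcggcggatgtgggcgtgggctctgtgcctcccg
Uhrf1 read 29.2, 40.4 and 17.5 CPM in anti-IL5 stage III and 1.28, 0.303 and 0.375 CPM in isotype stage IV, a log2 difference of 5.46 ± 0.76 (edgeR adjusted p = 2.96e-05). The letters TTTCCCGC, TTTCGCGC, TTTGCCGC or TTTGGCGC occurred on either strand in windows of 300 bases (250 before and 50 after the start) of 18 of the 42 S phase genes with a RefSeq window, 42.9%. The share was 4.73% over the 9792 tested genes with a window and 2.26% over all 32851 windows. Of the genes with a match, Gins3, Cdt1, Orc1 and Pold1 were not called, Pold3 fell and the others rose. Among genes without a match, Tyms, Rrm2 and Prim1 rose, while Pcna and Fen1 were not called. A letter match is a description of the window and says nothing on binding, and a link between match and rise was not tested.

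Granule protein genes also stood higher in the anti-IL5 precursors than in isotype stage IV. Of 11 tested genes on this list, 10 rose and 1 fell, with a median log2 difference of 2.98. Over all tested genes 13.4% were higher and 11.9% lower. Beside granule proteins the list holds Serpinb10, a serine protease inhibitor among the rises, and Ltc4s. The fall was Ltc4s, leukotriene C4 synthase (log2 difference -2.72 ± 0.78, edgeR adjusted p = 0.0125), a call lost without anti-IL5 stage III replicate 1 (adjusted p = 0.0638) or 2 (0.0591) or isotype stage IV replicate 2 (0.0788). Prg2, the major basic protein, read 12100, 11000 and 9190 CPM in anti-IL5 stage III and 2020, 1200 and 2150 CPM in isotype stage IV (log2 difference 2.59 ± 0.29, edgeR adjusted p = 8.6e-07). Epx, eosinophil peroxidase, read 5370, 5640 and 3080 CPM against 583, 208 and 375 CPM (log2 difference 3.6 ± 0.36, edgeR adjusted p = 1.77e-07). Isotype stage III stood higher still for Epx, at 14200, 12000 and 15300 CPM, and the stage III groups differed by -1.56 ± 0.33 (edgeR adjusted p = 0.00653). Prg3, a homologue of major basic protein, behaved likewise, at 1960, 1760 and 1220 CPM, between 3570, 3140 and 4690 CPM in isotype stage III and 138, 96.2 and 108 CPM in isotype stage IV.

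The eosinophil-associated ribonucleases, which are granule proteins too, rose as well. Ear6 read 324, 267 and 223 CPM in anti-IL5 stage III against 33.2, 18 and 14.5 CPM in isotype stage IV (log2 difference 3.63 ± 0.3, edgeR adjusted p = 1.21e-08), and 414, 348 and 387 CPM in isotype stage III, a difference between the stage III groups that was not called (edgeR adjusted p = 0.287). Ear1 and Ear2 rose by log2 differences of 2.6 ± 0.32 and 2.98 ± 0.36 (edgeR adjusted p = 2.8e-06 and 3.41e-06). The Ear genes are near-identical copies whose reads may have been split between them. Alox15, the 12/15-lipoxygenase, read 7960, 8030 and 8310 CPM against 3520, 5980 and 4000 CPM, and its call (log2 difference 0.85 ± 0.23, edgeR adjusted p = 0.00987) was lost without isotype stage IV replicate 1 (adjusted p = 0.063).

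The end point differed between the antibodies for several granule genes, so the distance depends on which stage IV is taken. Epx read 87, 53.3 and 28.9 CPM in anti-IL5 stage IV, under all isotype stage IV libraries (log2 difference -2.79 ± 0.35, edgeR adjusted p = 0.000175). Prg2 read 702, 409 and 246 CPM there, -1.98 ± 0.29 from isotype stage IV (edgeR adjusted p = 0.000576).

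Genes that make ribosomes fell more often than they rose in anti-IL5 stage III. Of 60 tested ribosome biogenesis genes, 2 rose and 22 fell against isotype stage IV, beside 13.4% higher and 11.9% lower over all tested genes, with a median log2 difference of -0.44. Isotype stage III against the same stage IV libraries had 14 higher and 2 lower, with a median of 0.19, a share of calls (16 of 60) under the 33.6% over all tested genes. The test between the stage III groups called 24 lower and 1 higher under anti-IL5, where it called 6.37% of all tested genes.

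Noc2l, a nucleolar factor of large subunit assembly, read 32.7, 30.5 and 27.6 CPM in anti-IL5 stage III, 52.6, 44.8 and 45.4 CPM in isotype stage III and 120, 97.7 and 97.4 CPM in isotype stage IV. The anti-IL5 precursors were under all libraries of both isotype stages, -1.8 ± 0.18 from stage IV (edgeR adjusted p = 1.25e-07). Utp4, of the small subunit processome, fell from 23.5, 26.4 and 22.3 CPM to 6.77, 10.4 and 10.4 CPM (log2 difference -1.39 ± 0.2, edgeR adjusted p = 1.99e-05), and isotype stage III, at 20.2, 17 and 21.4 CPM, was not called against stage IV (edgeR adjusted p = 0.248). Mybbp1a, a nucleolar protein, fell by 2.04 on the log2 scale, and Rcl1, which acts in processing of the small subunit, fell by 1.74. The list's rises were Wdr12, of the PeBoW complex, with a log2 difference of 1.12 ± 0.28 (edgeR adjusted p = 0.00501), and Polr1a, the largest subunit of RNA polymerase I, with 1.25 ± 0.32 (edgeR adjusted p = 0.00534). Myc, a transcription factor known to drive ribosome biogenesis, read 5.1, 1.92 and 2.67 CPM, under isotype stage IV at 9.53, 9.17 and 9.65 CPM and isotype stage III at 13.6, 20.9 and 22.4 CPM. It fell by 1.55 ± 0.4 against stage IV (edgeR adjusted p = 0.00671).

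The secretory pathway and unfolded protein response list also differed between the precursors. Of 56 tested genes, 2 rose and 10 fell in anti-IL5 stage III, with a median of -0.09, a share of calls (12 of 56) under the 25.3% over all tested genes. Isotype stage III had 29 higher and 2 lower against the same libraries, with a median of 0.51, and 23 of the 56 were lower and 0 higher under anti-IL5 at stage III. Over all tested genes the shares called in these contrasts were 33.6% and 6.37%. Xbp1, the unfolded protein response transcription factor that eosinophil precursors are known to need, read 96.2, 110 and 106 CPM in anti-IL5 stage III and 323, 349 and 353 CPM in isotype stage IV. It fell by 1.71 ± 0.14 on the log2 scale (edgeR adjusted p = 7.91e-09). Isotype stage III, at 255, 232 and 290 CPM, lay nearer to isotype stage IV, whereas anti-IL5 stage IV was also low, at 115, 113 and 146 CPM. Sdf2l1, an endoplasmic reticulum chaperone partner, read 44.4, 46.5 and 30.7 CPM, under isotype stage IV at 76.1, 105 and 83.4 CPM and isotype stage III at 130, 178 and 196 CPM (log2 difference from stage IV -1.12 ± 0.2, edgeR adjusted p = 0.00027). Sec24d, a cargo adaptor of COPII vesicles, fell by 1.22 ± 0.27 (edgeR adjusted p = 0.00152), from 33.3, 36.7 and 26.5 CPM to 17.3, 13 and 11.1 CPM.

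The promoter of Pdia6, a protein disulfide isomerase of the endoplasmic reticulum, is shown as the only called member of this list that holds an endoplasmic reticulum stress element (ERSE). The element is the letters CCAAT, any 9 bases and CCACG. ERSE is the element through which XBP1 and ATF6 are known to act. The 250 bases before its start (GRCm38.p6, RefSeq, chr12:17266339-17266588, plus strand) carry the match in capitals.
Pdia6: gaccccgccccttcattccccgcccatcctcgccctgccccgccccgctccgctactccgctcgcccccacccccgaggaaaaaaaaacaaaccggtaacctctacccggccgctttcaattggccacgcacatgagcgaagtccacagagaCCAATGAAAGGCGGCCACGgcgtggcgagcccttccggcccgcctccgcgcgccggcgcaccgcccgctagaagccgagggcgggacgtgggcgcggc
Pdia6 read 179, 174 and 154 CPM in anti-IL5 stage III, 246, 279 and 243 CPM in isotype stage IV and 292, 467 and 404 CPM in isotype stage III. Anti-IL5 precursors were lowest, -0.6 ± 0.16 from isotype stage IV (edgeR adjusted p = 0.00769) and -1.2 ± 0.16 from isotype stage III (edgeR adjusted p = 0.000151). An ERSE match on either strand was found for 8 of 42 genes of the list with a window (19%), 0.204% of tested genes with a window and 0.119% of all windows. Of these 8 genes only Pdia6 was called. Hspa5 (log2 difference -0.19, edgeR adjusted p = 0.531), Hsp90b1 (0.26, 0.254), Calr, Canx, Dnajc3, Creld2 and Syvn1 were not called.

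Metabolic lists divided. Cholesterol synthesis genes were still higher in anti-IL5 stage III, with 14 of 27 tested called higher and 2 lower and a median of 0.71, against 22 higher and 1 lower and a median of 1.38 in isotype stage III. Fdps, farnesyl diphosphate synthase, read 71.6, 65.1 and 51.8 CPM, over isotype stage IV at 11.6, 17.3 and 14.9 CPM and under isotype stage III at 115, 167 and 229 CPM (log2 difference from stage IV 2.1 ± 0.24, edgeR adjusted p = 9.6e-07). Serine and one-carbon enzymes were not higher as a list, with 1 of 20 called higher and 2 lower and a median of -0.14, where isotype stage III had 10 higher and 0 lower and a median of 0.55. Paics, of purine synthesis, read 36.4, 39.4 and 31.5 CPM, under the 59.1, 51.6 and 57.1 CPM of isotype stage IV (log2 difference -0.65 ± 0.15, edgeR adjusted p = 0.00336).

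Oxidative phosphorylation genes had 21 of 76 called higher and 0 lower with a median of 0.32, where 13.4% of all tested genes were higher. Cytosolic ribosomal proteins had 11 of 79 higher and 1 lower with a median of 0.25, a share of rises near the 13.4% over all tested genes. Glycolysis had 3 higher and 7 lower of 21, where 11.9% of all tested genes were lower. Hk3, the hexokinase of myeloid cells, rose by a log2 difference of 2.01 ± 0.18 (edgeR adjusted p = 2.41e-08), from 106, 79.9 and 96.3 CPM to 360, 350 and 429 CPM. Slc2a1, the glucose transporter GLUT1, fell by 1.98 ± 0.18 (edgeR adjusted p = 3.87e-08), from 139, 209 and 191 CPM to 39.7, 46.8 and 50.2 CPM. Hif1a, a hypoxia-inducible transcription factor, fell by 1.63 ± 0.28 (edgeR adjusted p = 0.00015). For these glycolytic genes isotype stage III overlapped the anti-IL5 precursors.

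**Figure D3:**
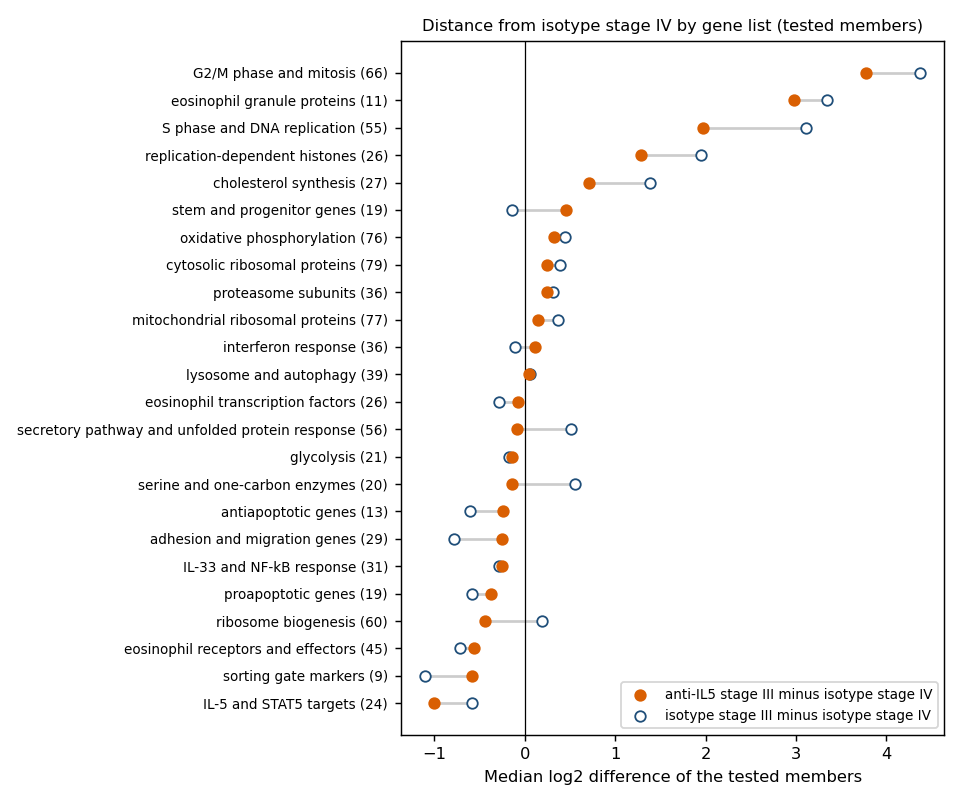
Median log2 difference from isotype stage IV of the tested members of each list (their number in brackets), filled orange for anti-IL5 stage III and open blue for isotype stage III, joined by a grey line. Mitosis, S phase and granule genes lie right of 0 for both, while ribosome biogenesis and the secretory list lie at -0.44 and -0.09 for anti-IL5 stage III and at 0.19 and 0.51 for isotype stage III. Both contrasts share the isotype stage IV libraries.

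STAT5 targets gave the lowest median of the pathway lists, -1 over 24 tested genes. Of these, 3 rose and 12 fell, a share of falls of 12 in 24 where 11.9% of all tested genes fell. Isotype stage III had 3 higher and 11 lower against the same libraries with a median of -0.58. At stage IV, 8 were lower and 0 higher under anti-IL5 than under isotype, with a median of -0.83, where 1.05% of all tested genes were called. At stage III, only 6 of the 24 were lower and 2 higher under anti-IL5, with a median of -0.53, where 6.37% of all tested genes were called.

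Socs2, a feedback inhibitor of cytokine receptors, read 0.785, 0.577 and 0.267 CPM in anti-IL5 stage III and 22.5, 26.3 and 30.5 CPM in isotype stage IV, a log2 difference of -5.59 ± 0.55 (edgeR adjusted p = 1.25e-07). Isotype stage III, at 6.36, 14 and 12.8 CPM, and anti-IL5 stage IV, at 3.34, 1.07 and 1.71 CPM, lay between them. Socs1, another SOCS inhibitor, read 13.7, 8.46 and 9.35 CPM against 88.6, 108 and 108 CPM (log2 difference -3.27 ± 0.31, edgeR adjusted p = 8.7e-08). Cish, the founding STAT5-induced inhibitor, read 29.4, 29.2 and 30.2 CPM, under isotype stage IV at 129, 215 and 137 CPM and isotype stage III at 68, 90.5 and 48.8 CPM, and in the range of anti-IL5 stage IV at 44.3, 24.1 and 33.6 CPM. It fell by 2.44 ± 0.36 (edgeR adjusted p = 2.52e-05). Pim1, a survival kinase, was 42.8, 40.6 and 41.6 CPM against 321, 202 and 322 CPM, and fell by 2.76 ± 0.3 (edgeR adjusted p = 4.39e-07). For each of these 4 genes all 3 anti-IL5 precursor libraries lay under all 6 isotype libraries of stages III and IV. Ccnd3, the cyclin D of late myeloid precursors, went the other way, at 688 ± 59.6 CPM (SD, n = 3) against 375 ± 95.3 CPM (SD, n = 3), with no overlap (log2 difference 0.87 ± 0.19, edgeR adjusted p = 0.00152), and did not differ by call between the stage III groups (edgeR adjusted p = 0.814).

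The promoter of Socs3, which binds and inhibits JAK kinases, is shown as the called member of the STAT5 list with the largest difference that holds a GAS match, TTCNNNGAA, the palindrome STAT proteins are known to recognise. Its 250 bases before the RefSeq start (GRCm38.p6, RefSeq, chr11:117969367-117969616, minus strand) carry the match in capitals. They lie inside the gene as annotated by GENCODE M21 (chromosome 11, 117966079 to 117970047).
Socs3: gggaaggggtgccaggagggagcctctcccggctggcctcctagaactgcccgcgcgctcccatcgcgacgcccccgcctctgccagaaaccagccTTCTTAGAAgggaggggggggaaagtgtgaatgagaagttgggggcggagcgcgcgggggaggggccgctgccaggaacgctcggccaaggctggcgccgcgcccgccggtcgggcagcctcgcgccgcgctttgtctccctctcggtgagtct
Socs3 read 1.08, 3.75 and 6.86 CPM in anti-IL5 stage III and 41.3, 29.5 and 41.3 CPM in isotype stage IV (log2 difference -3.25 ± 0.65, edgeR adjusted p = 0.000734). Isotype stage III, at 5.22, 5.77 and 5.71 CPM, lay within the range of the anti-IL5 precursors. A GAS match was found for 4 of 17 list genes with a window (23.5%), and for 8.46% of tested genes with a window, so this short motif is common.

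Survival genes moved in both directions, beside 13.4% higher and 11.9% lower over all tested genes. Of 13 tested antiapoptotic genes, 2 rose and 6 fell, with a median of -0.24. Pim1, Bcl2 and Bcl2l1 are also on the STAT5 list, so their calls are counted in both. Bcl2a1a, which encodes a copy of the BCL2 relative A1, read 3.04, 1.44 and 4.9 CPM in anti-IL5 stage III, 16.3, 17.1 and 12.7 CPM in isotype stage III, 22.4, 16.6 and 11.4 CPM in anti-IL5 stage IV and 96.5, 115 and 112 CPM in isotype stage IV. It was lowest in the anti-IL5 precursors, -5.1 ± 0.37 from isotype stage IV (edgeR adjusted p = 2.33e-09), although near-identical copies may share its reads. Bcl2l1, which encodes BCL-XL, read 36.2, 23.2 and 30.2 CPM against 78, 98.3 and 66.8 CPM (log2 difference -1.44 ± 0.24, edgeR adjusted p = 0.000113), and 62.6, 54 and 42.7 CPM in isotype stage III. Cflar, the inhibitor of caspase-8 activation, rose by 0.68 ± 0.16 (edgeR adjusted p = 0.00245). Bcl2 also rose, at 28.5, 18.2 and 14.3 CPM against 8.93, 11.7 and 5.15 CPM (log2 difference 1.23 ± 0.34, edgeR adjusted p = 0.0092), a call lost without anti-IL5 stage III replicate 1 (adjusted p = 0.0788) or isotype stage IV replicate 3 (adjusted p = 0.0579). Of 19 tested proapoptotic genes 1 rose and 7 fell, with a median of -0.37. Among them Bid, a BH3-only protein, fell by 0.72 ± 0.15 (edgeR adjusted p = 0.00113), so lower levels were found among genes of both directions of cell death control.

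The receptor chains themselves differed less. Il5ra read 278, 419 and 358 CPM in anti-IL5 stage III and 472, 488 and 356 CPM in isotype stage IV, ranges that overlap, and was not called (log2 difference -0.32 ± 0.18, edgeR adjusted p = 0.222). Csf2rb, the shared beta chain, fell from 665 ± 134 CPM (SD, n = 3) to 343 ± 28.7 CPM (SD, n = 3), with no overlap (log2 difference -0.95 ± 0.19, edgeR adjusted p = 0.00079).

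**Figure D4:**
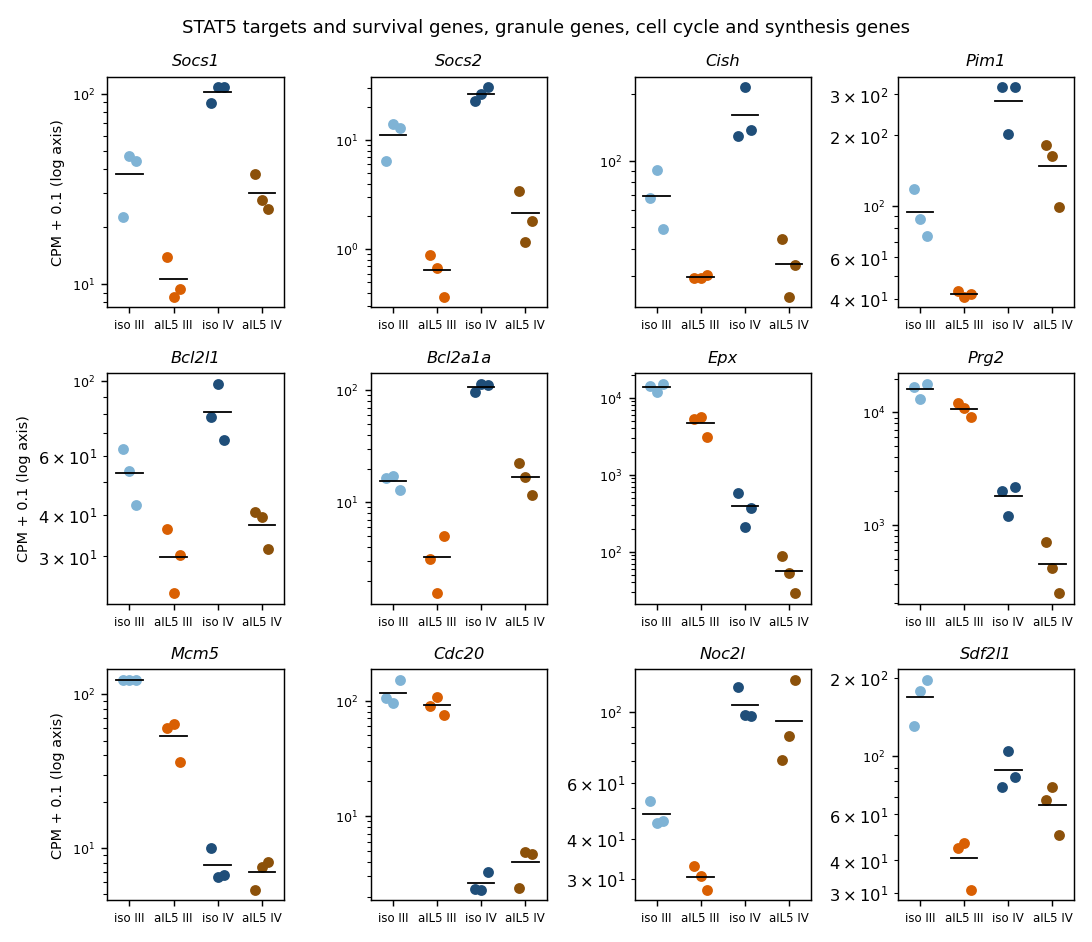
CPM plus 0.1 on a log axis, with a different range in each panel, for 12 genes in isotype stage III, anti-IL5 stage III, isotype stage IV and anti-IL5 stage IV, with 1 point per library (n = 3 per group) and a bar at the group mean. Socs1, Socs2, Cish, Pim1, Bcl2l1 and Bcl2a1a are lowest or among the lowest in anti-IL5 stage III, Epx, Prg2, Mcm5 and Cdc20 lie over isotype stage IV, and Noc2l and Sdf2l1 lie under both isotype stages.

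Surface receptors and effectors of mature eosinophils fell more often than they rose in the anti-IL5 precursors. Of 45 tested, 6 rose and 20 fell, beside 13.4% higher and 11.9% lower over all tested genes, with a median log2 difference of -0.56. Isotype stage III had 4 higher and 25 lower with a median of -0.72. Ccr3, the eotaxin receptor, read 438, 1100 and 813 CPM in anti-IL5 stage III and 2580, 2840 and 2740 CPM in isotype stage IV (log2 difference -1.79 ± 0.36, edgeR adjusted p = 0.000777). Isotype stage III, at 322, 670 and 337 CPM, overlapped the anti-IL5 precursors, and the difference between them was not called (log2 difference 0.82 ± 0.35, edgeR adjusted p = 0.172). C3ar1, the receptor for the complement fragment C3a, fell by 3.21 ± 0.29 (edgeR adjusted p = 3.46e-08), from 397, 375 and 399 CPM to 27.6, 46.1 and 52.3 CPM. Itga4, the alpha 4 integrin, read 66.2, 83.6 and 81.9 CPM, over isotype stage III at 53, 47.9 and 36.5 CPM and under isotype stage IV at 205, 235 and 280 CPM (log2 difference -1.63 ± 0.22, edgeR adjusted p = 6.46e-06). It was higher in anti-IL5 than in isotype stage III (log2 difference 0.75 ± 0.22, edgeR adjusted p = 0.0394).

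Il1rl1, the IL-33 receptor ST2, fell from 173, 218 and 155 CPM to 45.5, 87.8 and 70.9 CPM (log2 difference -1.42 ± 0.3, edgeR adjusted p = 0.0013). Il4ra, the IL-4 receptor alpha chain, fell by 1.72 ± 0.32 (edgeR adjusted p = 0.000356) and Selplg, the P-selectin ligand, fell by 1.07 ± 0.19 (edgeR adjusted p = 0.000184). Among the rises, Ltb4r1, the leukotriene B4 receptor, read 747, 744 and 763 CPM against 398, 492 and 472 CPM (log2 difference 0.73 ± 0.16, edgeR adjusted p = 0.00163). Cxcr4, which retains cells in the marrow, read 229, 166 and 165 CPM against 104, 31.4 and 92.4 CPM (log2 difference 1.3 ± 0.31, edgeR adjusted p = 0.0036), a call lost in a fit on the 6 libraries alone (adjusted p = 0.0689). Genes of the IL-33 and NF-kB response were split, with 4 of 31 higher and 8 lower, beside 13.4% higher and 11.9% lower over all tested genes. Tnf, the inflammatory cytokine, rose by 2.58 ± 0.38 (edgeR adjusted p = 2.42e-05), from 8, 8.11 and 2.72 CPM to 47.9, 32.1 and 33.8 CPM.

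Transcription factors of the lineage moved in both directions, with 3 of 26 tested higher and 6 lower and a median of -0.07 that changed sign between settings. Over all tested genes 13.4% were higher and 11.9% lower. Gata1, the factor that specifies eosinophils, read 369, 428 and 415 CPM against 411, 465 and 480 CPM and was not called (edgeR adjusted p = 0.496). Cebpe, needed for granule gene expression, rose by 0.7 ± 0.16 (edgeR adjusted p = 0.00209), from 455, 495 and 387 CPM to 786, 694 and 688 CPM. Cebpb, a factor of mature granulocytes, fell by 1.05 ± 0.27 (edgeR adjusted p = 0.00596), from 2940, 2020 and 3520 CPM to 1430, 1230 and 1440 CPM. Of the 19 stem and progenitor genes, 6 rose and 3 fell, and the rises included Kit, whose protein CD117 was used in the gates. Gfi1, a repressor active in granulocyte precursors, read 75.5, 83.9 and 74.4 CPM against 6.21, 4.02 and 3.65 CPM (log2 difference 4.07 ± 0.2, edgeR adjusted p = 9.29e-12). Its levels lay over isotype stage III too, at 59.3, 51.7 and 49.7 CPM, without a call between the stage III groups (edgeR adjusted p = 0.0577). Myb, a factor of dividing progenitors, read 268, 198 and 152 CPM against 9.44, 19 and 7.87 CPM (log2 difference 4.08 ± 0.32, edgeR adjusted p = 6.25e-09) and overlapped isotype stage III at 226, 156 and 232 CPM. Meis1, a homeobox factor, fell by 2.41 ± 0.52 (edgeR adjusted p = 0.00154).

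A set of genes was not called between anti-IL5 stage III and isotype stage IV, although isotype stage III differed from both. These were chosen by their values (called in isotype stage III against IV and between the stage III groups, not called against isotype stage IV and within 0.5 on the log2 scale of it), so they are a description. Lsp1, an actin-binding protein of leukocytes, read 77.1, 114 and 153 CPM in anti-IL5 stage III, 96, 170 and 196 CPM in isotype stage IV and 20.2, 26.2 and 50.2 CPM in isotype stage III. Mgat4a, a glycosyltransferase of the Golgi, read 10, 9.13 and 12.6 CPM, with isotype stage IV at 13, 12.5 and 13.2 CPM and isotype stage III at 2.29, 3.67 and 3.99 CPM. On the falling side, Tmem215 read 1.57, 1.35 and 2.85 CPM, overlapping isotype stage IV at 1.19, 2.05 and 1.03 CPM, where isotype stage III read 18.1, 17.1 and 26 CPM. Mccc2, a subunit of a mitochondrial carboxylase of leucine breakdown, read 2.84, 2.21 and 2.32 CPM, within the 0.766, 2.88 and 1.87 CPM of isotype stage IV and under the 10.9, 11.8 and 9.27 CPM of isotype stage III. Among genes fixed by name, the mast cell and basophil protease Cpa3 read 11.7, 14 and 9.35 CPM, near isotype stage IV at 11.2, 5.99 and 7.59 CPM (log2 difference 0.5 ± 0.38, edgeR adjusted p = 0.374) and far from isotype stage III at 168, 114 and 354 CPM. Gata2, a factor shared with basophils and mast cells, read 163, 134 and 95.2 CPM beside 119, 130 and 128 CPM in isotype stage IV and 341, 260 and 529 CPM in isotype stage III.

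Other genes lay close together in both stage III groups (chosen for a difference between these under 0.25 on the log2 scale). Besides Qrfpr, Il17rb, Ifitm6, Chdh, Fgfr1 and Ccl9 above, they include Lbp, the lipopolysaccharide-binding protein, at 118, 118 and 127 CPM in anti-IL5 stage III, 105, 114 and 118 CPM in isotype stage III and 5.27, 3.49 and 3.37 CPM in isotype stage IV. Vopp1 read 11.2, 15.1 and 4.63 CPM, 8.02, 12.7 and 9.7 CPM and 127, 133 and 161 CPM in the same groups. Il1rl2, the IL-36 receptor, stayed at or under 1.15 CPM in all 6 stage III libraries and read 15.9, 20.7 and 15.2 CPM in isotype stage IV.

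A further set lay outside both isotype stages. Over all tested genes, 430 (3.47%) had all 3 anti-IL5 stage III libraries over all 6 isotype libraries of stages III and IV, and 548 (4.42%) had all 3 under them. Among genes called against isotype stage IV, these were 224 of the 1657 higher (13.5%) and 350 of the 1477 lower (23.7%), and these called genes had been required to differ from stage IV. The named genes of this set were chosen by their values and are a description.

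Serpinb10, a clade B serine protease inhibitor that GENCODE M21 annotates as a polymorphic pseudogene (chromosome 1, 107529003 to 107549271, GRCm38), read 44.5, 35.7 and 34.7 CPM in anti-IL5 stage III. It read 2.67, 0.787 and 1.51 CPM in isotype stage III, 0.17, 0.0758 and 0.187 CPM in isotype stage IV and 2.39, 2.05 and 1.35 CPM in anti-IL5 stage IV, so the anti-IL5 precursors were the only high group of these 4. Tgm2, transglutaminase 2, read 63.8, 81 and 79.6 CPM, over isotype stage III at 18.6, 19.8 and 11.5 CPM and isotype stage IV at 23.7, 12.6 and 21.8 CPM, and anti-IL5 stage IV was also high, at 107, 114 and 29.8 CPM. Miox, myo-inositol oxygenase, read 42.2, 40.4 and 37.8 CPM, against 10.2, 9.1 and 11.7 CPM in isotype stage III and 1.11, 1.36 and 2.62 CPM in isotype stage IV. Sntb1, a syntrophin, and Adgrl4, an adhesion receptor, showed the same order, at 32.7, 34.3 and 35.7 CPM and 10.2, 16.4 and 11 CPM in anti-IL5 stage III.

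On the low side, Lipg, endothelial lipase, held 2 counts over the anti-IL5 stage III libraries, 4868 over isotype stage III and 141 over isotype stage IV. The ratio of isotype stage IV to the anti-IL5 precursors was 63 (95% counting interval 17.1 to 525) and that of isotype stage III was 2710 (750 to 22400), so these precursors stood under both isotype stages. Lrp12, of the low-density lipoprotein receptor family (chromosome 15, 39870589 to 39943994, GRCm38), read 0.588, 0.865 and 2.49 CPM, against 37.2, 31.8 and 27.7 CPM in isotype stage III, 117, 121 and 92.7 CPM in isotype stage IV and 17.4, 3.65 and 7.82 CPM in anti-IL5 stage IV. Adora2b, an adenosine receptor, read 8.92, 4.33 and 2.05 CPM, where both isotype stages lay between 88.2 and 142 CPM and anti-IL5 stage IV read 5.96, 0.801 and 1.44 CPM. Tgm1, another transglutaminase, and Upp1, uridine phosphorylase, stayed at or under 0.801 CPM in the anti-IL5 precursors and read 14.9, 28.3 and 18.7 CPM and 31.1, 33.9 and 33.7 CPM in isotype stage IV. Plxdc2, a plexin domain protein, held 3 counts against 449 in isotype stage IV, a ratio of 134 (95% counting interval 45.5 to 651).

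**Figure D5:**
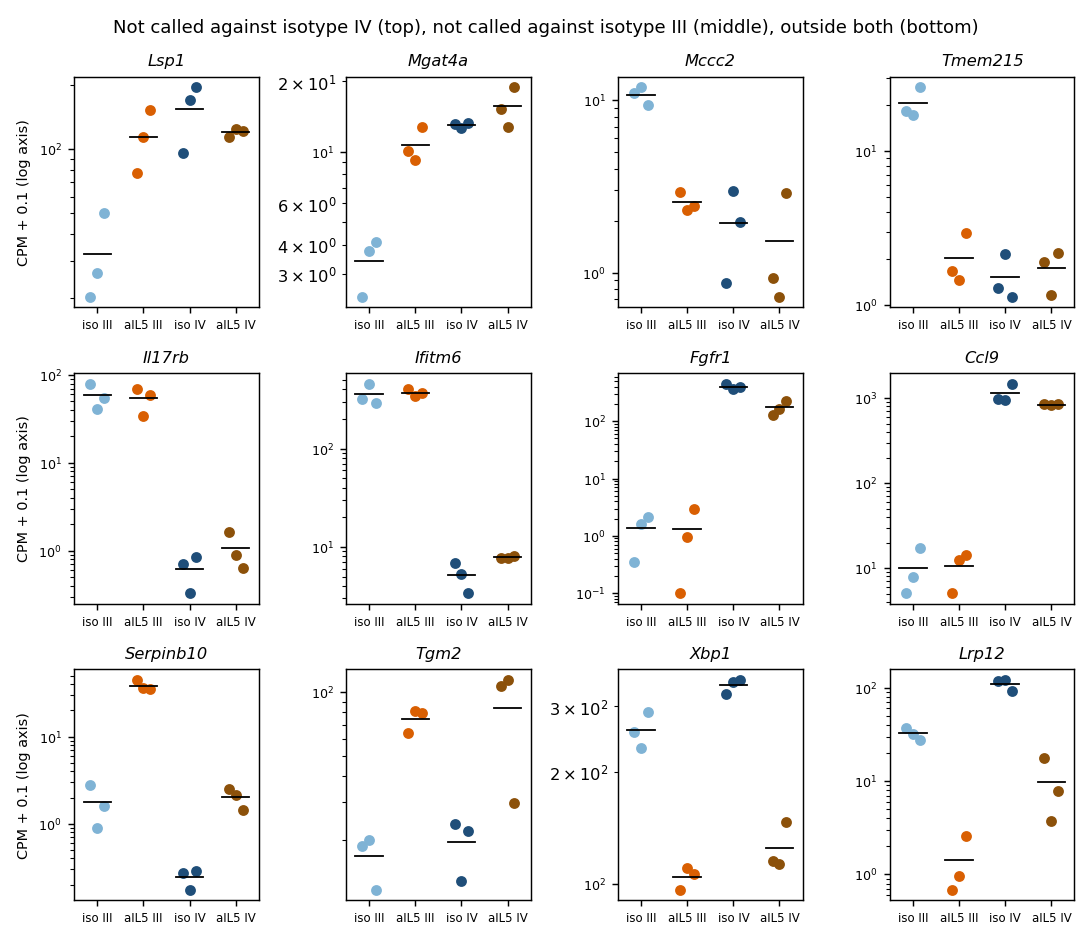
CPM plus 0.1 on a log axis, with a different range in each panel, for 12 genes chosen by their values, with 1 point per library (n = 3 per group) and a bar at the group mean. In the top row anti-IL5 stage III was not called against isotype stage IV, in the middle row it lay with isotype stage III, and in the bottom row all 3 of its libraries lie outside all 6 isotype libraries shown.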

How the data were processed

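Stage III and IV eosinophils were sorted into TRIzol, and their RNA was amplified with SMART-Seq v4 (17 cycles, no strand marking) before Nextera XT library preparation, per the labels' protocols. The deposited files hold raw counts per gene symbol. STAR 2.6.1a, build mm10 and DESeq2 are named in the submitters' processing notes, DESeq2 without its role. How reads were counted, with which annotation and whether by strand, is not given in the sources used here, so overlapping or antisense genes may share reads. Of 24982 genes, 16619 had at least 1 count. The lines for reads with no feature (12.65% to 20.22% in the 6 libraries compared) and ambiguous reads (1.858% to 2.099%) were dropped before library sizes were computed. The files hold 0 mitochondrial gene lines. PCR reads without molecular identifiers are not independent molecules, so counting intervals and floors cover counting error only.

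All 22 libraries in 8 groups of stage and antibody entered 1 quasi-likelihood model of edgeR 4.0.16 under R 4.3.3, with TMM scaling, filterByExpr by group (12387 genes kept) and robust dispersion, tested on simulated data. CPM used TMM-scaled library sizes, and principal components used log2 CPM with a prior count of 2. Groups with 3 or fewer counts are given as count ratios with exact 95% intervals. Members and the 33 gene lists were chosen with earlier results of these data known, and lists are described by counts and medians over their tested members, with no set test. List members that missed the filter carry no value, and those kept through 1 group alone could only differ. Named genes were the 10 largest rises and falls with a mean of at least 10 CPM and no overlap (predicted gene and pseudogene symbols, such as Gm with a number, left out), up to 4 called members of each list and direction by smallest p, 44 genes fixed by name, the printed promoters, and the genes outside, near stage IV or near isotype stage III by their values. Alternatives were size factors (RLE), library totals, no filter, DESeq2 1.42.0, limma-voom (limma 3.58.1), fits on fewer libraries, a replicate block and leaving out each library. Promoters are RefSeq windows of GRCm38.p6, and gene positions come from GENCODE M21.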

Additional observations from a re-analysis of the deposited data

How the results depend on the processing

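Across the 14 other settings, the comparison of anti-IL5 stage III with isotype stage IV called 2343 to 3487 genes, within 1.5 times the 3134 of the fit given. Size factors (RLE) gave 3151 calls, library totals 3076, no filter on low counts 2858, DESeq2 3487 and limma-voom 3367. A fit on the 12 libraries of stages III and IV called 3322 genes and one on the 6 libraries compared 3346. Leaving out each of the 6 libraries in turn gave 2343 to 2687 calls, 1315 to 1489 higher and 1028 to 1255 lower, with fewer samples in each fit. The share of calls that were higher ranged from 49.1% with limma-voom to 56.1% without anti-IL5 stage III replicate 1, beside 52.9%.

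Same-numbered libraries of both groups deviated from their group means with correlations of 0.04, 0.08 and 0.1, and differently numbered ones with -0.08 to 0.01. The labels do not say what same-numbered libraries share, and these small values cannot settle it. With the replicate number as a block, 3372 genes were called, 1754 higher and 1618 lower. Every library correlated best with its own number, which describes these data and does not establish a pairing.

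Anti-IL5 against isotype stage III gave 789 calls and 1305 with DESeq2, and anti-IL5 against isotype stage IV gave 130 calls, 257 with DESeq2 and 205 with limma-voom. The cause was not tested. Of 105 named and called genes, 100 stayed called in every setting, the exceptions being Cxcr4, Bcl2, Alox15, Ltc4s and Klf4, and the 8 named genes that were not called stayed so. Gata2, not called at 0.06, ranged from -0.13 to 0.24 when 1 library was left out, the reversal coming without anti-IL5 stage III replicate 1. Of 462 recomputed list medians, 47 moved by more than 1 SD. The median of the stem and progenitor genes ranged from -0.04 to 0.67. In 5 cases a median over 0.25 in size changed sign. Without anti-IL5 stage III replicate 3, that of the stem and progenitor genes went from 0.46 to -0.04, of neutrophil primary granule markers from 0.63 to -0.22, of monocyte and macrophage markers from 0.97 to -0.25 and of B lineage markers from 0.77 to -0.15, the last also without anti-IL5 stage III replicate 1 (-0.05). Depth limits what could be detected for genes under 3 counts in every library of both groups.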

Other observations

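Most other gene groups differed little as lists between anti-IL5 stage III and isotype stage IV, with single genes that stood apart. Their counts stand beside 13.4% higher and 11.9% lower over all tested genes. Of 36 tested proteasome subunits, 6 rose and 1 fell, with a median log2 difference of 0.24. Psmd1, a regulatory particle subunit, rose by 0.66 ± 0.16 (edgeR adjusted p = 0.00336). Of 77 mitochondrial ribosomal proteins, 12 rose and 5 fell, with a median of 0.15, where isotype stage III had 29 higher and 0 lower against the same stage IV libraries. Mrpl45, which tethers the mitochondrial ribosome to the inner membrane, read 71.6, 48.3 and 64.5 CPM in anti-IL5 stage III and 24.6, 25.3 and 26.8 CPM in isotype stage IV. Lysosome and autophagy genes were split, with 7 of 39 higher and 6 lower. Ctsl, cathepsin L, rose by 1.43 ± 0.23 (edgeR adjusted p = 8.13e-05), and Gaa, lysosomal alpha-glucosidase, fell by 1.46 ± 0.23 (edgeR adjusted p = 7e-05). Of 36 interferon response genes, 2 rose and 1 fell. Ifitm3, an antiviral membrane protein, read 75.5, 70.1 and 73.9 CPM against 13.5, 9.55 and 18.2 CPM. Of 29 adhesion and migration genes, 4 rose and 8 fell, with a median of -0.25, a share of falls over the 11.9% of all tested genes. The falls included Itgb1, whose protein CD29 was used in the gates.

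Some genes on the marker lists of other cells were high in all 6 stage III libraries. Over all tested genes 13.4% were higher and 11.9% lower in anti-IL5 stage III than in isotype stage IV. Vcam1, an adhesion molecule listed as a macrophage marker, read 362, 360 and 216 CPM in anti-IL5 stage III, 648, 533 and 934 CPM in isotype stage III and 11.2, 6.52 and 11.3 CPM in isotype stage IV. Of the 16 tested monocyte and macrophage markers 2 rose and 1 fell. The other rise was Klf4, a transcription factor, at 1.47, 0.961 and 0.801 CPM against 0.0851, 0 and 0.281 CPM (log2 difference 3.09 ± 1.06, edgeR adjusted p = 0.0359). Its call was lost without anti-IL5 stage III replicate 1 (adjusted p = 0.0984) or 2 (0.0537), without isotype stage IV replicate 1 (0.105) or 2 (0.132), and in a fit on the 12 libraries of stages III and IV (0.0745). The fall was Csf1r, the receptor of macrophage colony-stimulating factor, by 1.22 ± 0.3 (edgeR adjusted p = 0.00445). Itga2b, the platelet integrin alpha chain, read 722, 505 and 564 CPM against 145, 163 and 152 CPM. Cd79b, of the B cell receptor complex, read 44.1, 36.6 and 29.8 CPM against 4, 5.3 and 5.43 CPM, the only call among 6 tested B lineage markers. Cd79a read 4.23 to 8.19 CPM in anti-IL5 stage III and 5.27 to 7.87 CPM in isotype stage IV. Jchain ranged from 0.196 to 42.8 CPM in anti-IL5 stage III and from 0 to 1.74 CPM in isotype stage IV. The B cell markers Ms4a1 and Igll1 were at 0 in both groups. Of 3 tested T, NK and innate lymphoid markers 2 rose, and Cd4, Cd8a and Ncr1 were at 0. Nkg7, a granule membrane protein of cytotoxic cells, read 19.6, 16.2 and 18.1 CPM, between isotype stage III at 85.9, 92.1 and 220 CPM and isotype stage IV at 3.06, 2.05 and 2.81 CPM. The part of other cells in these levels was not tested.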
